A study of Mus musculus with 12 samples.

Results

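*Cd47* and the mouse SIRP receptor genes *Sirpa*, *Sirpb1a*, *Sirpb1b* and *Sirpb1c* were followed across the sorted sub-populations of a mouse leukemia. The 5 genes were taken by their symbols out of 20202 genes in the deposited expression table. CD47 is a membrane protein on nearly all cells. Its best known partner is SIRPα, a receptor of macrophages and other myeloid cells, which on binding CD47 recruits the phosphatases SHP-1 and SHP-2 to its cytoplasmic tail and restrains engulfment of the CD47-bearing cell. The SIRPβ1 receptors resemble SIRPα outside the cell but lack that tail, pair with the activating adaptor DAP12 and are not established receptors of CD47. In acute myeloid leukemia, CD47 is known as a surface protein of leukemic cells and as a drug target.

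ML23 is a leukemia line made by lentiviral overexpression of *Meis1*, *HoxA9* and *HoxB5* in cells of an rtTA transgenic mouse (Jax strain 6965) and passaged in C57BL/6 mice, so every library carries the same 3 factors. Cells positive for the reporter ZsGreen were sorted from bone marrow by CD9, cKit, Mac1 and CD48 into 4 sub-populations, with 3 RNA-seq libraries of 100 cells each. P9 cells were positive for CD9, cKit and Mac1 and negative for CD48. P10 cells were positive for cKit, Mac1 and CD48 and negative for CD9. P11 cells were positive for cKit and CD48 and negative for CD9 and Mac1, and this is the sub-population that passed the disease to new hosts. P12 cells were positive for CD48 and negative for CD9, cKit and Mac1. ML23 is 1 line, mRNA and not protein was measured, and there was no sub-population of normal cells. No label ties a library to a mouse, although the study drew on 3 diseased mice, so p-values measure only the spread between these libraries.

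The libraries held an estimated 13441944 to 21307424 alignments, so that 1 CPM (alignments scaled to the total of the library) stood for an estimated 13.4 to 21.3 alignments. Most of these totals are above the read yield that the study's methods state, so their absolute scale is uncertain. All libraries are labelled hematopoietic stem cells, yet the summed level of 9 neutrophil markers was 101016 to 113466 CPM in P9. It was 1199 to 11021 CPM in P10 and at most 683 CPM elsewhere. The P10 libraries thus spread widely, and the marker *Ngp* ran from 263 to 4331 CPM there with a median of 491. The summed level of 7 progenitor markers was 7319 to 13289 CPM in P11, 2093 to 3580 in P12, 1341 to 2082 in P10 and 342 to 775 in P9. Most of the P11 sum was *Mpo* (4608 to 9084 CPM) and *Elane* (1256 to 2817 CPM). *Kit* was at 45.3 to 89.5 CPM in P11 and 46.4 to 67 in P9, while *Cd34*, *Myb*, *Flt3* and *Gata2* were higher in P11. The summed level of 10 macrophage markers was 106 to 129 CPM in P9, 2246 to 2368 in P10, 850 to 935 in P11 and 1054 to 1824 in P12. The libraries labelled P12 differed among themselves. Over the 2432 genes more than 2-fold apart between P10 and the mean of P12 replicates 1 and 2, the median gene of P12 replicate 3 lay 48% of the log2 way towards P10. As replicates 1 and 2 picked these genes and the measure was not computed for them, it has no baseline. Whether the sort or the label of P12 replicate 3 was as stated was not tested. Values without that library are therefore given beside the results on P12. Dendritic cell markers summed to 154 to 450 CPM in P11, 149 to 517 in P12 and at most 257 elsewhere. Most of that sum in P11 and P12 was *Flt3* (136 to 432 and 129 to 501 CPM), which is also among the progenitor markers. B cell markers summed to 285 to 413 CPM in P11, 400 to 499 in P12 and at most 253 elsewhere. In P11 and P12 most of this was *Ighm* (269 to 393 and 386 to 472 CPM). Erythroid markers summed to at most 220 CPM, in P9. T and NK cell, megakaryocyte, and stromal and endothelial markers summed to at most 24.8 CPM in any library.

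The genes lie at 3 places of the mm10 genome. *Cd47* spans bases 49800533 to 49915010 of chromosome 16 on the forward strand, and *Sirpa* spans bases 129592835 to 129632228 of chromosome 2, also forward. *Sirpb1a* (15371653 to 15426520), *Sirpb1b* (15495751 to 15575065) and *Sirpb1c* (15795145 to 15848528) follow each other on the reverse strand of chromosome 3. Of the 16 genes of the table that start within 1 Mb of them, *Gm9733* and *Gm5150* are also annotated as SIRP relatives.

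RefSeq promoters (GRCm38.p6, 250 bases before to 50 after the annotated start) were matched for 4 of the 5 genes. They are shown because the windows of *Cd47* and the *Sirpb1* genes differ in base composition and those of the 3 *Sirpb1* genes are near copies. The window of *Sirpa* was not analysed here. The *Cd47* promoter is chr16:49855404-49855703 on the forward strand, and those of *Sirpb1a*, *Sirpb1b* and *Sirpb1c* are chr3:15426378-15426677, chr3:15575016-15575315 and chr3:15848438-15848737 on the reverse strand. The RefSeq start of *Cd47* lies inside the span that the table gives. Capitals mark CpG pairs, where a C is followed by a G.
Cd47: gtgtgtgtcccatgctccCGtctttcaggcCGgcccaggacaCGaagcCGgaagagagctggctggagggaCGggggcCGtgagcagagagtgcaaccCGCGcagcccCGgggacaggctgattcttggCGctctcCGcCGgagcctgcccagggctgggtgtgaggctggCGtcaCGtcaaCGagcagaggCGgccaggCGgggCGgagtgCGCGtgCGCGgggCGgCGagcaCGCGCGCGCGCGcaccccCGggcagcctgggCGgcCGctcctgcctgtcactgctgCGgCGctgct
Sirpb1a: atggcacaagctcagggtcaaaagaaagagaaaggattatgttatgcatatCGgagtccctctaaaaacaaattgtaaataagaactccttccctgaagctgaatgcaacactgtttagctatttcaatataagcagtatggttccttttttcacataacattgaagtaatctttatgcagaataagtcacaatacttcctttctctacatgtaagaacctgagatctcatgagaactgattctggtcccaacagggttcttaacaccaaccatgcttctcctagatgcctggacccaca
Sirpb1b: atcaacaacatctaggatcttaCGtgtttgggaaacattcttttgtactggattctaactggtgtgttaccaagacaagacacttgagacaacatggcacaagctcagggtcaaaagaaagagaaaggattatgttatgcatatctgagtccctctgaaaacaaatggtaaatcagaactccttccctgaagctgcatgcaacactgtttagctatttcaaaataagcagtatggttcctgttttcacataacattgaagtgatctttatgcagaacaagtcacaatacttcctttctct
Sirpb1c: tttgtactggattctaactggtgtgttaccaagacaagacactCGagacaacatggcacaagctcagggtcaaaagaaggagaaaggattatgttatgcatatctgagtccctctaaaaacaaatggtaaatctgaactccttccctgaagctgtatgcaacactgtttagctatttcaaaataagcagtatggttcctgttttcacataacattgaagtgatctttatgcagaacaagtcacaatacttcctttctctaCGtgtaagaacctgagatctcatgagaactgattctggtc

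The *Cd47* window is GC-rich, with 74% G or C and 35 CpG pairs, a content that 4.77% of the 32851 promoters of the table reach. The 3 *Sirpb1* windows hold 38 to 39% G or C and 1 or 2 CpG pairs. Over the stretch they share, *Sirpb1b* and *Sirpb1c* are identical at 254 of 259 bases (98.1%), and *Sirpb1a* at 198 of 207 bases (95.7%) with *Sirpb1b* and 237 of 248 (95.6%) with *Sirpb1c*. The short motifs AGGAAGT (an ETS and PU.1 core), GAGGAAG (which overlaps it) and CACGTG (an E-box) were searched on both strands. AGGAAGT had 1 match in each *Sirpb1* window, on the reverse strand from base 195 in *Sirpb1a*, 288 in *Sirpb1b* and 247 in *Sirpb1c*, and 9.35% of all promoters hold one. The other motifs, held by 13.6 and 7.15% of all promoters, had no match in the 4 windows, and *Cd47* had none of the 3. The motifs were chosen after the sequences were seen, and a match is a description of letters, not of binding.

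The transcripts of the *Sirpb1* genes are also near copies, which bears on how 61-base reads could be assigned. Of all 61-base windows of the coding transcripts, 38.3% in *Sirpb1a*, 62.7% in *Sirpb1b* and 53.1% in *Sirpb1c* occur in at least 1 other gene, above all in each other. The share is 0.248% in *Cd47* and 0 in *Sirpa*, *Gm9733* and *Gm5150*. The split of reads among the 3 *Sirpb1* genes is thus uncertain, while their sum and the levels of *Cd47* and *Sirpa* are not touched by it.

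**Figure D1:**
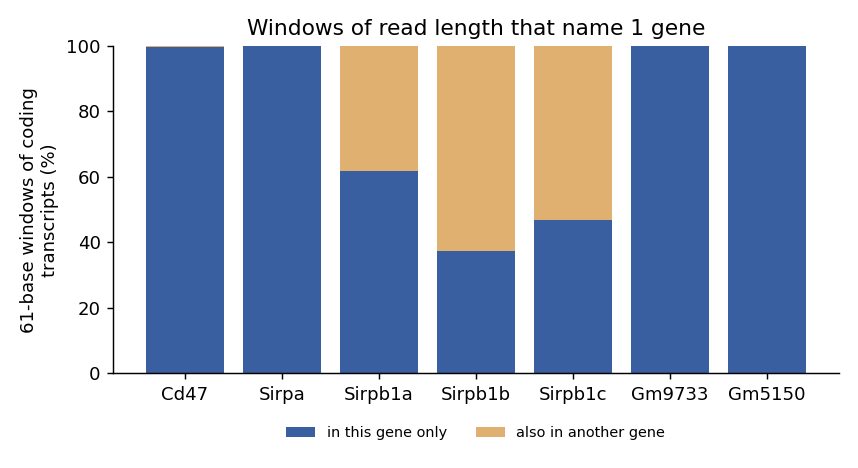
Share (percent) of the 61-base windows of each gene's coding transcripts that occur in that gene only or also in another gene. Shared windows make up 38.3% of *Sirpb1a*, 62.7% of *Sirpb1b* and 53.1% of *Sirpb1c*, and 0.248% or less of *Cd47*, *Sirpa* and the relatives *Gm9733* and *Gm5150*.

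*Cd47* mRNA was abundant in every sub-population, with 486 to 901 CPM over the 12 libraries. It was at 798, 779 and 805 CPM in the P11 libraries (replicates 1, 2 and 3) and at 901, 810 and 614 CPM in P12. P9 had 645, 716 and 688 CPM, and P10 had 486, 489 and 576 CPM. The P11 libraries lay above those of P9 and P10, as in 61.5% and 40.8% of all genes, and within the range of P12, whose replicate 3 was the lowest of its group and lay below P9. The group means were (± SD over 3 libraries) 794 ± 13.4 CPM in P11, 775 ± 147 in P12, 683 ± 35.5 in P9 and 517 ± 50.7 in P10.

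With all libraries in the fit and in the order P11, P12, P9 and P10, only P10 stood apart from its neighbour. On the log2 scale P10 minus P9 was -0.40 (standard error 0.15, limma adjusted p = 0.027 on log2(CPM + 0.5), Benjamini-Hochberg over 13450 genes), an adjusted p that 14.8% of all genes passed downwards. It was below P12 by -0.57 (adjusted p = 0.013), and P11 exceeded it by 0.62 (adjusted p = 0.0044). No difference was shown between P11 and P9 (0.22, 95% interval -0.10 to 0.53, adjusted p = 0.19), nor between P12 and P9 (0.17, -0.15 to 0.48, adjusted p = 0.32). The interval between P11 and P12 ran from -0.26 to 0.37 around a log2 fold change of 0.05 (adjusted p = 0.91). Without P12 replicate 3, *Cd47* had 0.32 in P12 against P9 (adjusted p = 0.026), -0.73 in P10 against P12 and -0.11 in P11 against P12. Every interval lay within 1 log2 unit, the 2-fold threshold, and *Cd47* was called in none of the 7 comparisons.

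The contrast the study was built on sets P11 against the average of P9, P10 and P12, and there *Cd47* was 0.30 higher in P11 on the log2 scale (standard error 0.12, limma adjusted p = 0.046). The adjusted p passed 0.1, as it did upwards in 50.1% of all genes tested, and the median gene had 0.40. Median-ratio rescaling of the libraries lowered the median gene to 0.19, and *Cd47* then had 0.06 (adjusted p = 0.69). The same rescaling took *Cd47* in P11 against P9 from 0.22 to -0.29 (adjusted p = 0.11), so the direction between these sub-populations depended on the scaling. P10 stayed below the other sub-populations under it (-0.77 against P9, -0.48 against P12, and 0.48 for P11 against P10).

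*Sirpa* encodes SIRPα, the receptor that binds CD47. Its level was 471, 466 and 486 CPM in P10 and 341, 345 and 338 CPM in P9. P11 had 198, 178 and 196 CPM, and P12 had 196, 171 and 318 CPM. The P10 libraries were the highest and did not overlap with any other. Of all genes, 53.9% lay so above P9 and 19.0% above P11, and the share above P12 was not computed. The P9 libraries came next, and P12 replicate 3 lay near P9 whereas the other P12 libraries lay with P11. The group means were 474 ± 10.6 CPM in P10, 341 ± 3.61 in P9, 228 ± 78.6 in P12 and 191 ± 11.1 in P11 (SD, n = 3 each).

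*Sirpa* was called as lower in P11 than in P10, by -1.31 on the log2 scale (standard error 0.18, limma adjusted p = 1.7e-04), and as higher in P10 than in P12, with 1.10 (adjusted p = 0.0015). The second call ended without P12 replicate 2 (0.92) and held without P12 replicate 3 (1.37). P11 was below P9 by -0.84 (adjusted p = 7.9e-04, passed downwards by 17.9% of all genes), P12 was below P9 by -0.63 (adjusted p = 0.006) and P10 was above P9 by 0.47 (adjusted p = 0.033), all under 2-fold. In P10 against P9 the median gene had 0.61, above the value of *Sirpa*. Without P12 replicate 3, P12 was below P9 by -0.90. Against the mean of the others P11 had -0.79 (standard error 0.15, adjusted p = 5.4e-04), an adjusted p that 14.7% of all genes passed downwards. Rescaling took this value to -1.02 and that against P9 to -1.35, which pass the 2-fold threshold, while P10 against P9 shrank to 0.11 (adjusted p = 0.61). Between P11 and P12 no difference in *Sirpa* was shown (-0.21, 95% interval -0.59 to 0.18, adjusted p = 0.64, or 0.06 without P12 replicate 3).

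**Figure D2:**
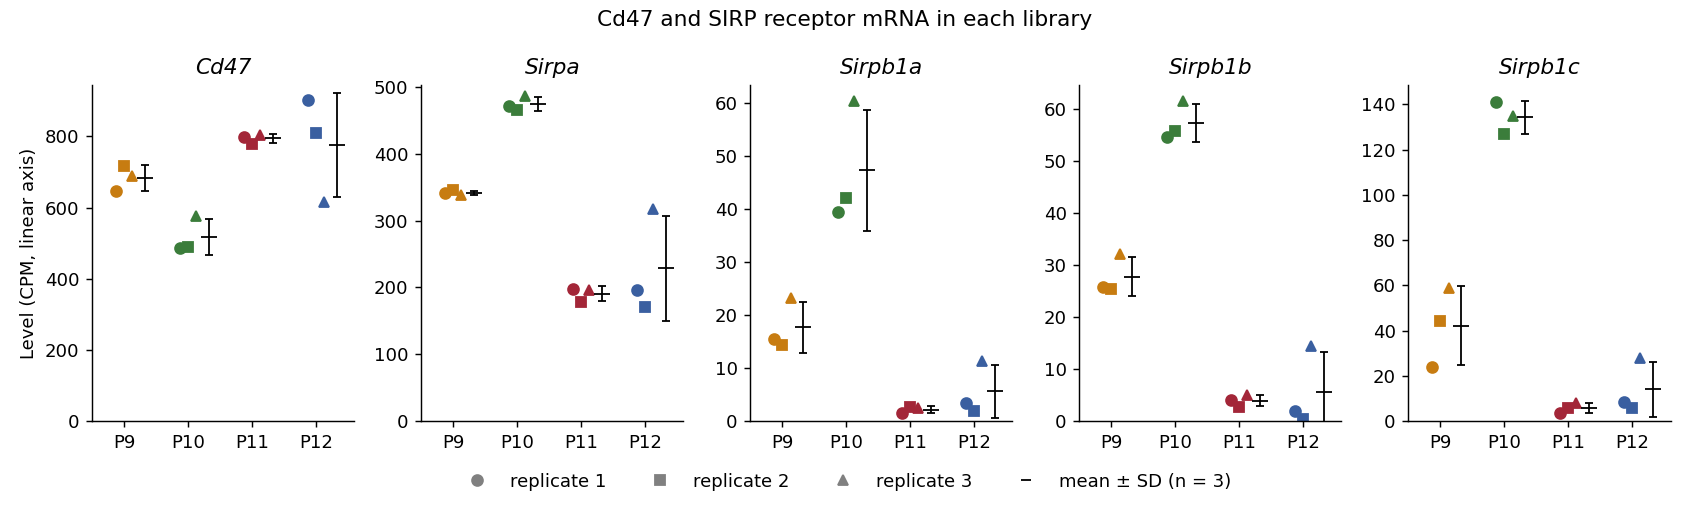
Level (CPM, linear axis from 0) of each gene in each library, by sub-population, with symbols for the replicates and bars for the mean ± SD (n = 3). P10 holds the lowest *Cd47* mean (517 CPM) and the highest mean of each receptor gene, and P12 replicate 3 (triangle) lies away from the other P12 libraries in every panel.

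The *Sirpb1* genes encode the DAP12-coupled relatives of SIRPα and spanned a far wider range than *Cd47* and *Sirpa*. *Sirpb1c* had 141, 127 and 135 CPM in P10, 23.8, 44.2 and 58.6 in P9, 3.73, 5.98 and 8.14 in P11 and 8.60, 5.69 and 27.8 in P12. The P10 libraries lay above all others (53.9% of all genes lay so above P9 and 19.0% above P11, with no share computed for P12). Those of P11 lay below all of P9 and P10 (17.8 and 19.0% of all genes), while P12 replicate 3 reached into the range of P9. *Sirpb1c* fell in P11 against the mean of the others by 2.69 on the log2 scale (standard error 0.38, adjusted p = 8.2e-05 from limma). The log2 fold change was -4.44 against P10 (21.8-fold lower, adjusted p = 4.9e-05) and -2.69 against P9 (adjusted p = 1.6e-04).

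*Sirpb1b* had 54.7, 55.8 and 61.4 CPM in P10, 25.8, 25.3 and 32.1 in P9, 4.04, 2.79 and 5.02 in P11 and 1.87, 0.439 and 14.5 in P12. Its lowest value, in P12 replicate 2, stood for 8 estimated alignments, and P12 replicate 3 was the highest of the P11 and P12 libraries. The log2 fold change of P11 was -1.99 against the mean of the others (standard error 0.56, adjusted p = 0.008 from limma), -3.73 against P10 (adjusted p = 9.7e-04) and -2.69 against P9 (adjusted p = 0.0029).

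*Sirpb1a* had 39.4, 42.2 and 60.5 CPM in P10, 15.5, 14.5 and 23.2 in P9, 1.48, 2.61 and 2.46 in P11 and 3.50, 2.01 and 11.4 in P12. P10 lay above P9 in every library, and both lay above every library of P11 and P12. Of all genes, 53.9% had P10 wholly above P9, and 17.8 and 19.0% had P11 wholly below P9 and P10. The shares for P12 were not computed. Its log2 fold change in P11 was -2.61 against the mean of the others (standard error 0.36, adjusted p = 6.9e-05 from limma), -4.16 against P10 (adjusted p = 5.2e-05) and -2.76 against P9 (adjusted p = 8.2e-05).

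The 3 *Sirpb1* genes were called as lower in P11 than the mean of the others, while *Cd47* and *Sirpa* were not called. Over all genes tested, 5.20% were called in that direction. Against P10, *Sirpa* and the 3 *Sirpb1* genes were called as lower in P11, with 7.52% of all genes, and against P9 the 3 *Sirpb1* genes, with 11.2% of all genes. P10 exceeded P12 in *Sirpa* and the 3 *Sirpb1* genes (log2 fold changes 1.10 to 4.16), with 5.83% of all genes called as higher. P12 was below P9 in the 3 *Sirpb1* genes (-3.13 to -1.78), with 11.1% of all genes called as lower. P10 exceeded P9 in *Sirpb1a* (1.40, adjusted p = 0.014) and *Sirpb1c* (1.75, adjusted p = 0.0053), with 34.1% called as higher, and *Sirpb1b* had 1.04 (adjusted p = 0.2). Without P12 replicate 3 the same genes were called in the comparisons with P12, with log2 fold changes of 1.37 to 5.27 in P10 against P12, -4.24 to -2.42 in P12 against P9 and -2.47 to -1.62 for the *Sirpb1* genes in P11 against the mean of the others. These comparisons share libraries and are not independent of each other.

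Between P11 and P12 none of the 5 genes was called, and 3 of the 13450 genes tested were (0.0223%). At an unadjusted p under 0.05 from limma the counts were 0 and 1860. The log2 fold changes were -0.91 for *Sirpb1a* (95% interval -1.87 to 0.06), 0.44 for *Sirpb1b* (-1.05 to 1.92) and -0.92 for *Sirpb1c* (-1.93 to 0.10). These intervals reach past 1 log2 unit, so they do not bound a difference in the *Sirpb1* genes to under 2-fold. Without P12 replicate 3 they were -0.27, 1.54 (95% interval 0.80 to 2.28, adjusted p = 0.22) and -0.28, so the *Sirpb1b* value rests on that library. For *Cd47* and *Sirpa* the intervals lay within 1 log2 unit.

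**Figure D3:**
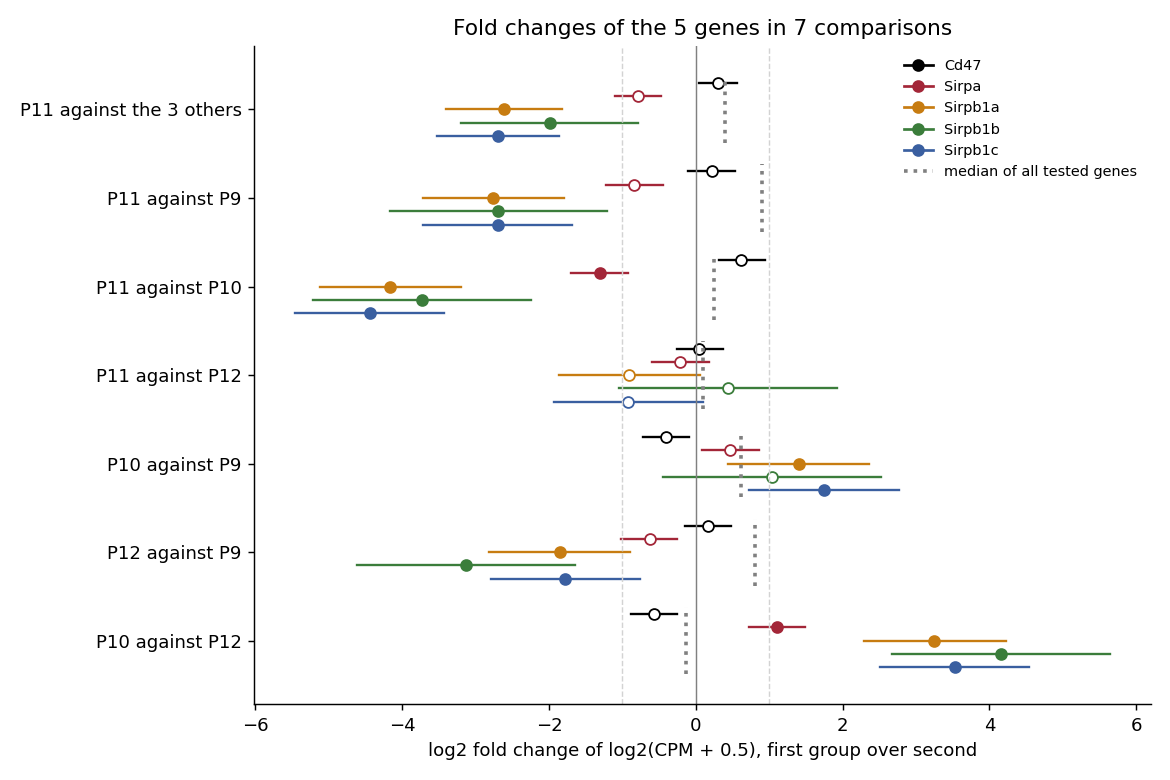
Log2 fold change (first group over second, on log2(CPM + 0.5)) of the 5 genes in 7 comparisons with 95% intervals from limma. Filled points passed an adjusted p of 0.1 and 2-fold, dashed lines mark 2-fold and dotted bars the median of all tested genes. *Cd47* lies within 1 log2 unit of 0 in every comparison, and the *Sirpb1* genes reach -4.44 in P11 against P10.

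The summed level of the 3 *Sirpb1* genes, on which the split of shared reads has no effect, was 235, 225 and 257 CPM in P10 and 65.1, 84.0 and 114 CPM in P9. It was 9.25, 11.4 and 15.6 CPM in P11 and 14.0, 8.14 and 53.7 CPM in P12. The sum did not overlap between P10, P9 and the libraries of P11 and P12 together, and P12 replicate 3 was the nearest of the last to P9. *Sirpb1c* made up 52.6 to 60.0% of the sum in P10, 36.6 to 52.6% in P9, 40.3 to 52.6% in P11 and 51.8 to 69.9% in P12, shares that rest on the uncertain split. Of the relatives, *Gm9733* was at 13.7 ± 1.70 CPM in P10 and at means of 0.876 to 1.69 in the others, and *Gm5150* was at 9.34 ± 1.90 CPM in P10, 6.56 ± 3.02 in P9 and under 1 CPM in every library of P11 and P12. P10 and P9 overlapped in *Gm5150*, with no difference shown (0.54, limma adjusted p = 0.24).

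Per kilobase of the longest coding transcript (5250 bases for *Cd47*, 3982 for *Sirpa*, 2489 for *Sirpb1c*, 1499 for *Sirpb1a* and *Sirpb1b*), the order of ligand and receptor depended on the sub-population. In P11, *Cd47* was at 148 to 153 CPM per kb and *Sirpa* at 44.7 to 49.8. In P10, *Sirpa* was at 117 to 122 CPM per kb, above *Cd47* at 92.7 to 110. That order in P10 rests on the transcript chosen, as in CPM *Cd47* exceeded *Sirpa* in every library. Annotated coding transcripts run down to 1032 bases for *Cd47* and 677 for *Sirpa*, and which were in use was not determined. The *Sirpb1* genes stayed below both in every library, with a highest value of 56.7 CPM per kb for *Sirpb1c* in P10 and values of 0.986 to 3.35 CPM per kb in P11.

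The ratio of *Cd47* to *Sirpa* CPM within a library is free of library scaling. It was 4.02, 4.36 and 4.09 in P11, 4.59, 4.72 and 1.93 in P12, 1.89, 2.07 and 2.03 in P9 and 1.03, 1.05 and 1.18 in P10. The P11 libraries lay above all of P9 and P10, and P12 replicate 3 lay with P9. The mean log2 ratio was 0.56 over the 6 libraries sorted as Mac1+ (P9 and P10) and 1.92 over the 6 sorted as Mac1- (P11 and P12). The difference of -1.37, or 2.58-fold, had an exact two-sided permutation p of 0.0065 (adjusted over 2 tests 0.013), where the smallest p possible was 0.0022. Without P12 replicate 3 it was -1.56 (adjusted p = 0.0043). Each side holds 2 sub-populations, and their libraries are not 6 replicates of 1 state. The P11 mean exceeded the mean of the 9 other libraries by 1.08 on the log2 scale (2.12-fold), which did not pass 0.05 (exact permutation p = 0.086, adjusted 0.086, and 0.12 without P12 replicate 3). Without P12 replicate 1 or without P12 replicate 2 the adjusted p was 0.03. With 3 libraries against 3 an exact test cannot go below p = 0.1, so single pairs were not tested.

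**Figure D4:**
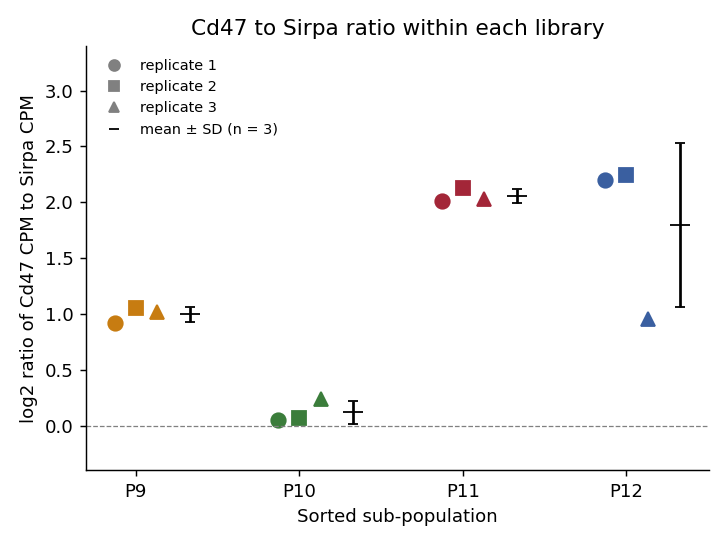
Log2 ratio of *Cd47* CPM to *Sirpa* CPM in each library, by sub-population, with symbols for the replicates and bars for the mean ± SD (n = 3). The P11 mean is 2.06, the P9 mean 1.00 and the P10 mean 0.12, and P12 replicate 3 lies with P9.

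Macrophage markers went with the receptor levels only in part. *Sirpa* and the *Sirpb1* genes were highest in P10, where the summed macrophage markers were highest as well (2246 to 2368 CPM). Most of that sum was *Csf1r* (825 to 870 CPM), *Ccr2* (453 to 568) and *Cd68* (333 to 432). *Cd68* overlapped between P10 and P12 (261 to 398 CPM). *Mrc1* overlapped between P10 (2.07 to 3.58 CPM) and P9 (1.03 to 3.93). The other markers of the list were highest in P10. P9 had the lowest macrophage sum (106 to 129 CPM), and its *Sirpa* libraries lay above all those of P11, as in 17.8% of all genes. The neutrophil sum was 101016 to 113466 CPM in P9 and 203 to 683 CPM in P11. P12 replicate 3 had the highest macrophage sum of P12 (1824 CPM), a neutrophil sum of 277 CPM and an *Itgam* level (Mac1 alpha chain) of 538 CPM, the highest of its group. It lay 65.3% of the log2 way from the other P12 libraries to P10 for *Cd47*, 58.0% for *Sirpa*, 49.0% for *Sirpb1a*, 63.1% for *Sirpb1b* and 46.0% for *Sirpb1c*. These percentages have no baseline from the other P12 libraries. The part of other cells in the levels was not tested, and in bulk libraries fewer cells of a type and less RNA per cell cannot be told apart.

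Of 8 genes of SIRPα signalling, 1 was called as lower in P11 than the mean of the others and 0 as higher, with a median of -0.65 against 0.40 over all genes tested, of which 5.20% were called as lower and 19.9% as higher. That gene was *Fyb*, an adaptor of integrin signalling (-1.56, adjusted p = 4.0e-05 from limma), with means ± SD of 70.6 ± 5.15 CPM in P11 and 381 ± 45.6 in P10 (n = 3). *Ptpn6*, which encodes SHP-1, had -0.77, the focal adhesion kinase gene *Ptk2b* had -0.87 and the myosin gene *Myh9* had -0.89, each under 2-fold, and after rescaling 4 of the 8 were called as lower, beside 987 of all 13441 genes. The other phosphatase gene, *Ptpn11* (SHP-2), had 0.39.

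Of 5 genes of the SIRPβ adaptors and kinases, 1 was called as lower and 0 as higher (median -0.87), where 5.20% and 19.9% of all genes were (median 0.40). The count of lower genes was 4 after rescaling, beside 987 of all 13441 genes, and 2 without P11 replicate 3. The Src family kinase gene *Fgr* had means of 10.1 ± 3.84 CPM (P11) and 325 ± 51.3 (P9; log2 fold change against the others -3.09, adjusted p = 2.1e-05 from limma). The kinase gene *Lyn* had -0.80, under 2-fold. *Tyrobp*, the gene of the adaptor DAP12 itself, had means of 234 ± 30.0 CPM (P11), 544 ± 32.0 (P9) and 494 ± 144 (P10). Its log2 fold change of -0.89 stayed under 2-fold (adjusted p = 8.3e-04), as did that of the kinase gene *Syk* (-0.61). DAP12 mRNA was present in P11, where the *Sirpb1* genes summed to 15.6 CPM or less.

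On the ligand side, 1 of 10 tested genes of CD47 maturation and partners was called as lower and 0 as higher (median 0.01), where 5.20% and 19.9% of all genes were (median 0.40). *Thbs1*, which encodes thrombospondin-1, another ligand of CD47, had means of 2740 ± 546 CPM (P9), 249 ± 15.4 (P10) and 11 ± 1.77 (P11) and lay at 11.3 to 31.4 CPM in P12 (log2 fold change against the others -4.31, adjusted p = 4.8e-07 from limma). *Qpctl*, whose enzyme modifies the SIRPα-binding end of CD47, had 0.49, and *Ubqln1*, a ubiquilin gene, had 0.34, both under 2-fold. Of 4 genes of factors named as regulators of *Cd47* in other systems, *Myc* was called as higher, as were 19.9% of all genes (2.36, adjusted p = 1.6e-06), with means of 160 ± 16.8 CPM (P11), 92.7 ± 27.9 (P12), 43.8 ± 7.84 (P10) and 7.18 ± 1.25 (P9), while *Hif1a*, *Nfkb1* and *Rela* had -0.08 to 0.13. P9 had the lowest *Myc* level and a *Cd47* level above that of P10, and a link of *Myc* to *Cd47* was not tested.

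Of 9 tested genes of other signals that restrain engulfment, 1 was called as higher and 3 as lower (median -0.84), with 19.9% and 5.20% of all genes. The count of lower genes was 5 after rescaling or with an arithmetic fold, and 2 with a pseudocount of 2 or without any 1 of 6 libraries (P9 replicate 2, P10 replicate 1, P11 replicate 1 or 2, P12 replicate 2 or 3). *Pecam1*, an adhesion molecule with inhibitory motifs, had means of 199 ± 19.4 CPM (P11), 195 ± 31.2 (P12), 91.7 ± 12.1 (P10) and 13.8 ± 2.01 (P9) (1.66, adjusted p = 1.8e-06 from limma). With an arithmetic fold no gene of the list was called as higher. *Pirb*, an inhibitory receptor for MHC class I, had -2.24, the sialic acid receptor gene *Siglece* had -1.98 and *Cd200r1* had -1.01. The gene of the MHC class I light chain, *B2m*, had 0.07.

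Of 19 tested genes of engulfment signals and receptors, 2 were called as higher and 8 as lower in P11 (median -0.66), where 19.9% and 5.20% of all genes were (79.3% of all calls higher, or 63.8% after rescaling). The count of lower genes was 5 with a pseudocount of 2 and 4 of 13 with a filter of 10 CPM, and that of higher genes was 1 with an arithmetic fold. *Calr*, the gene of calreticulin, which on a cell surface acts as a signal for engulfment, had means of 1430 ± 388 CPM (P11), 916 ± 44.1 (P12), 577 ± 88.7 (P10) and 257 ± 26.0 (P9) (1.45, adjusted p = 8.2e-06 from limma). *Mfge8*, a bridging protein for dying cells, had 1.80, with means of 28 CPM (P11), 29.3 (P12), 16.2 (P10) and 0.631 (P9). The Fc receptor gene *Fcgr4* had -1.90, and the complement genes *C1qa*, *C1qb* and *C1qc* had -2.13 to -1.72. Means of the complement genes were 0.458 to 2.58 CPM in P11, 0.497 to 3.24 in P12, 3.31 to 4.63 in P9 and 20.2 to 58.6 in P10. *C1qb* was not called in P11 against P9 (-0.73, limma adjusted p = 0.13). Against P12, 0 genes of these 6 lists were called in either direction, beside 3 of all 13450 genes (0.0223%). At an unadjusted p under 0.05 from limma, 9 of the 55 genes passed (16.4%), beside 13.8% of all genes.

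**Figure D5:**
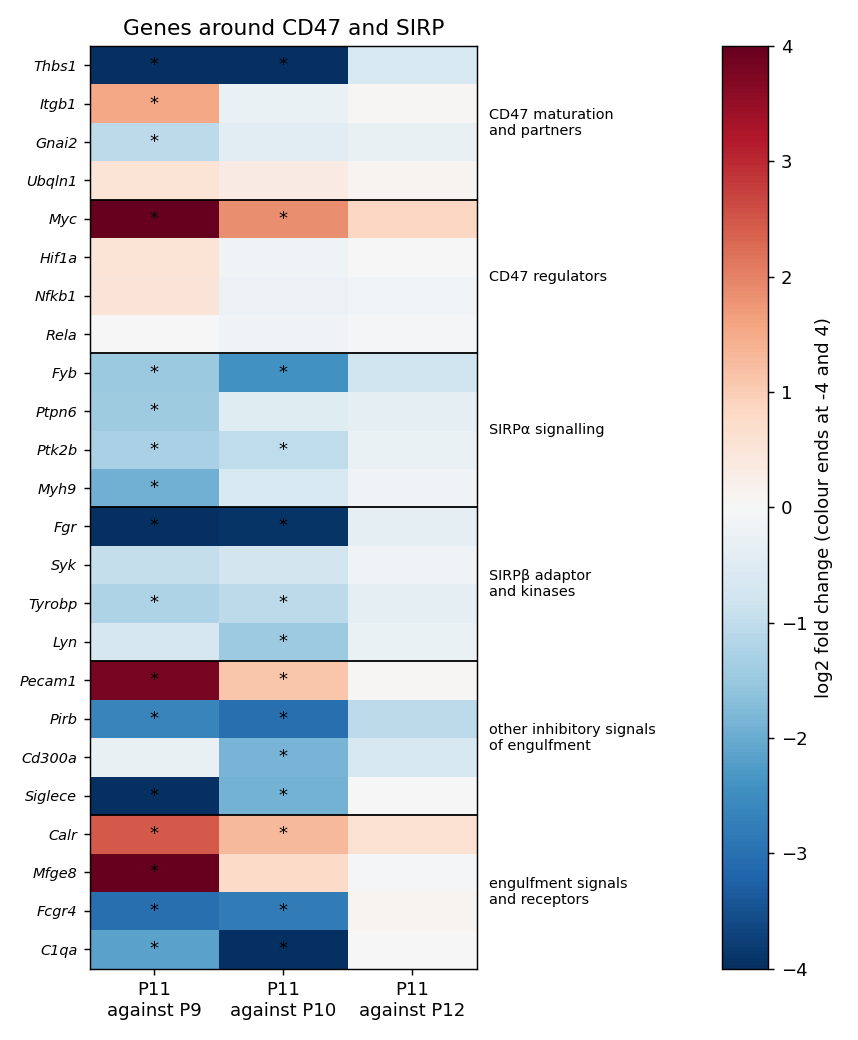
Log2 fold change (colour, ending at -4 and 4) of up to 4 genes from each of 6 lists in P11 against P9, P10 and P12, with an asterisk for an adjusted p under 0.1 and more than 2-fold. *Thbs1* and *Fgr* are lower in P11 against P9 and P10, *Myc*, *Pecam1* and *Calr* are higher, and no gene is called against P12.

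Over the 12 libraries, the patterns of the ligand and the receptors had different nearest genes among 9095 protein-coding genes. *Cd47* was most like *Arap2* (Pearson r = 0.963 of log2 values), the histone H3.3 gene *H3f3b* (0.948), *Ints13* (0.940), *Riok1* (0.925) and the chromatin protein gene *Hmgb2* (0.921). *Sirpa* was most like *Slc11a1* (0.992), a metal transporter gene of phagocytes, the tyrosine phosphatase gene *Ptpn1* (0.985), *Sirpb1a* (0.980), *Mknk1* (0.980) and *Klra2* (0.979). *Slc11a1* was also the nearest to *Sirpb1a* (0.987) and among the 3 nearest to *Sirpb1c* (0.976), whose first was *Sirpb1a* (0.986). *Sirpb1b* was most like the interferon-induced gene *Ifitm3* (0.980), *Sort1* (0.975) and *Lyz2* (0.970), the gene of lysozyme. An r above 0.9 was reached by 15 genes for *Cd47* and by 111 to 173 genes for each receptor. The points share 4 sub-populations and their libraries, and the same shared reads enter *Sirpb1a* and *Sirpb1c*, so these values describe likeness only.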

How the data were processed

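Per the labels, poly-A RNA of 100 sorted cells per library was amplified as cDNA over 14 cycles. Reads of 61 bases were aligned by the authors with STAR 2.5.3a (build mm10, Ensembl transcripts), and Partek's E/M method gave the quantities that they normalized. The deposited values are CPM with 0.0001 added, which was subtracted. The labels name a SMART-Seq kit and the methods of the study a directional kit, so use of strand is not settled. Totals were estimated from the spacing of low values. Of the values worth 20 alignments at most, 76.6 to 83.0% came within 0.1 of whole ones, so whole reads were not recovered and no count-based test was run, although the study used one.

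The 13450 genes that reached 1 CPM in 3 libraries were fitted by limma 3.58.1 (R 4.3.3) on log2(CPM + 0.5), with 1 mean per sub-population over all 12 libraries and an intensity trend. Calls needed the thresholds of the study, an adjusted p under 0.1 and more than 2-fold. At these thresholds the fit called 3370 genes in P11 against the mean of the others, far more than the study reported with its own test. The calls here are therefore not equivalent to those of the study. Fold changes on this scale understate the change of low genes. The *Cd47* to *Sirpa* ratio was tested by exact permutation. Windows and motifs were counted in Python 3.11.15 over GENCODE transcripts and RefSeq promoters.

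The members, gene lists, markers and tests were chosen with earlier results of these data known. The lists are given without 1 gene that is not reported here. Named genes are the members, expressed SIRP relatives nearby, the 5 genes (3 for each *Sirpb1* gene) with the highest Pearson r among protein-coding genes with a group mean of 10 CPM or more, and up to 4 genes per list by adjusted p. *Ptpn11*, *Qpctl*, *B2m*, *C1qb*, *C1qc* and *Cd200r1* were added after their values were seen. Alternatives were a pseudocount of 0.1 or 2, a filter of 10 CPM or none, median-ratio rescaling, an arithmetic fold, the replicate number as a block, Spearman's rho and each library left out. The setting without replicate 3 of every sub-population was chosen after seeing the data.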

Additional observations from a re-analysis of the deposited data

How the results depend on the processing

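Of the 5 genes, 3 or 4 were called in P11 against the mean of the others under every alternative, 3 or 4 against P9, 4 against P10 and 0 against P12, and the counts between other sub-populations were 2 or 3 (P10 against P9), 3 or 4 (P12 against P9) and 3 or 4 (P10 against P12). Of 700 single values, 683 kept their direction and side of the thresholds. With 1 library left out, P11 against P12 ranged from -0.11 to 0.17 in *Cd47*, -0.39 to 0.06 in *Sirpa* and -0.45 to 1.54 in *Sirpb1b*. For *Cd47*, rescaling reversed P11 against P9 and P12 against P9 (-0.29 each) and gave 0 for P11 against P12. P11 against P12 also turned to -0.11 without P12 replicate 3 and -0.12 without replicate 3 of every sub-population, and in *Sirpa* to 0.06 and 0.04. *Sirpb1b* in P11 against P12 turned to -0.45 without P12 replicate 2 and -0.50 with an arithmetic fold. For *Sirpa*, rescaling added calls in P11 against the others (-1.02), P11 against P9 (-1.35) and P12 against P9 (-1.08). *Sirpb1b* in P10 against P9 passed with a pseudocount of 2 (1.00), without P12 replicate 2 or 3 (1.04 each) and when replicate 3 of every sub-population was left out (1.10). Leaving out a P12 library cannot change the fold of P10 against P9, only the shared estimate of the spread and the genes tested. The causes of the other changes were not tested.

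The log2 ratio of *Cd47* to *Sirpa* in P11 against the others ranged from 0.97 to 1.24 with 1 library left out, and was 1.24 (adjusted p = 0.03, exact permutation) without P12 replicate 1 or 2. Over all genes, calls between P11 and P12 moved from 3 to 119 with the replicate block, 34 with a pseudocount of 2, 31 without replicate 3 of every sub-population, 1 after rescaling, with no filter or with a pseudocount of 0.1, and 1 to 82 with 1 library left out (82 without P12 replicate 2). With a pseudocount of 2, calls fell from 3370 to 2213 in P11 against the others and from 1624 to 1067 in P10 against P12. Rescaling moved the share of calls that were higher in P11 against the others from 79.3 to 63.8%. By Spearman's rho, 2 of the 5 genes nearest *Cd47* were the same, 0 of those nearest *Sirpa*, *Sirpb1a* and *Sirpb1c*, and 2 of the 3 nearest *Sirpb1b*.

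Same-numbered libraries correlated over 0.1 in 12 of 18 pairs (-0.016 to 0.527), and 10 of 12 libraries correlated best with their own number, a hint from the data and not the design. The median correlation was 0.138 over pairs of 1 number and -0.117 over other pairs. As the labels tie no number to a mouse and 6 pairs lay under 0.1, the libraries were treated as unpaired, also in the tests of the ratio, and whether they share mice by number is not settled. The replicate block changed no call of the 5 genes. Levels of a few CPM, as of the *Sirpb1* genes in P11 (1.48 to 8.14 CPM), rest on few alignments from 100 cells and carry counting and amplification error.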
